A study of Mus musculus with 66 samples.

Results

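Levels of 10 genes for phase I oxidation, reduction and hydrolysis and for drug export were followed in developing mouse lung with and without Nrf2: the aldehyde oxidases Aox1 and Aox3, xanthine dehydrogenase (Xdh), the quinone reductase Nqo1, microsomal epoxide hydrolase (Ephx1), the carboxylesterases Ces1d and Ces1g, the carbonyl reductases Cbr2 and Cbr3, and the efflux pump Abcc1. They were chosen by name, with earlier results of these data known. A probe set was taken for a gene where the platform annotation gave that gene alone. These genes are 10 of the 18193 measured this way. They were covered by 13 of the 45037 probe sets tested, of which 3 belonged to Ces1d and 2 to Abcc1, and the probe set with the highest mean signal over the 66 arrays stood for each gene. All 10 were measured and tested, and none was removed by a filter on low signal.

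Aldehyde oxidases and xanthine dehydrogenase are related enzymes that carry a molybdenum cofactor, iron-sulphur centres and a flavin. Aldehyde oxidases oxidise aldehydes and nitrogen-containing ring compounds, and xanthine dehydrogenase makes uric acid from purines. Nrf2 is encoded by Nfe2l2 and acts with small Maf proteins at antioxidant response elements. Nqo1, which reduces quinones with NADH or NADPH, is the target gene most widely used to read its activity. Carboxylesterases cut esters and amides, Ephx1 turns reactive epoxides into diols, carbonyl reductases turn ketones and aldehydes into alcohols, and Abcc1 pumps glutathione conjugates and leukotrienes out of cells.

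Lungs of Nrf2-/- mice (knockout, KO) were compared with lungs of Nrf2+/+ mice (wild type, WT) at 11 ages. Of these, 4 were before birth (E13.5 and E15.5, then E17.5 and E18.5, in embryonic days), 5 ran daily from birth (PND0) to postnatal day 4 (PND4), and the last were PND14 and PND42. Each of the 22 groups had 3 samples of homogenized whole lung, each from 1 lung, except at E13.5, where 2 to 3 lungs were pooled per sample. The mice came from timed matings, were fed AIN-76A and received no treatment named in the labels. The sources used here do not give the mouse strain, the sexes or the litters. In whole lung, fewer cells of a type and less RNA per cell cannot be told apart.

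The RNA was hybridised to 1 Affymetrix array per sample, with 3 arrays per group limiting the precision. Levels below are log2(signal + 16) of the quantile-normalized array signal, where 16 is the pseudocount, and a difference is KO minus WT on that scale, with its SE from 1 limma model over all 66 arrays. A call means a Benjamini-Hochberg adjusted p under 0.05 over the 45037 probe sets. Because of the pseudocount, folds of dim genes are understated.

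The targeted gene was checked first. The brighter Nfe2l2 probe set lay at 4.41 to 8.26 in KO lungs, against 10.49 to 12.25 in WT lungs. Its highest KO value, 8.26, was replicate 1 at E13.5. A second, dimmer Nfe2l2 probe set was not lower in KO on average (difference 0.51 ± 0.09). It was called lower at PND1 (-1.93) and higher at PND0 (3.27) and PND3 (2.09). The sources used here do not say whether this probe set lies in the deleted part. The KO libraries of E13.5 were also unlike each other in lung epithelial markers: the mean level of 5 club cell markers was 11.17, 8.44 and 10.02 in KO, against 7.40, 7.29 and 7.45 in WT. The KO libraries labelled E18.5 looked less mature than those labelled E17.5. On a scale built from 2507 genes that differ between WT lungs of E15.5 (set to 0) and PND0 (set to 1), KO lungs lay at 0.75 ± 0.04 at E17.5 and 0.44 ± 0.07 at E18.5, and WT lungs at 0.57 ± 0.06 and 0.79 ± 0.09 (SD, n = 3 each). Counts of calls over the ages are therefore given with and without these 3 ages. Steps from E13.5 are given only with that age. The 24 arrays of PND1 to PND4 had been scaled differently before deposit (2% trimmed means of 171.7 to 307.1) from the 42 arrays of the 7 other ages (500), with both genotypes of an age in the same set. In WT at PND14, replicate 2 stood below the other 2 replicates in 9 of the 10 genes. The log2 ratio of Gapdh 3' to 5' signal, a quality measure, was -0.25 to -0.17 in KO and -0.28 to -0.06 in WT at PND0. It was higher at PND14, at 0.77 to 1.38 in KO and 0.24 to 1.01 in WT. At PND42 it was 0.43 to 0.66 in KO and 0.06 to 0.45 in WT. A fit with this ratio as a covariate is given at the end. Markers of other tissues and of macrophages varied between libraries and are given together after the aldehyde oxidases, and their part in the results was not tested.

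The promoters of the aldehyde oxidases and of Nqo1 are shown because these 3 genes were all lower in KO lungs at birth. RefSeq promoter windows of GRCm38.p6 (250 bases before the start to 50 after it) were at hand for 7 of the 10 genes, all but Xdh, Ces1d and Abcc1. Aox1 and Aox3 lie next to each other on chromosome 1, with 0 protein-coding genes between them, on the plus strand (chr1:58029719-58030018 and chr1:58112886-58113185). The Nqo1 window is on the minus strand (chr8:107403156-107403455). Capitals mark the motif TGACTCA in Aox1 and TATAAA in Nqo1:
Aox1: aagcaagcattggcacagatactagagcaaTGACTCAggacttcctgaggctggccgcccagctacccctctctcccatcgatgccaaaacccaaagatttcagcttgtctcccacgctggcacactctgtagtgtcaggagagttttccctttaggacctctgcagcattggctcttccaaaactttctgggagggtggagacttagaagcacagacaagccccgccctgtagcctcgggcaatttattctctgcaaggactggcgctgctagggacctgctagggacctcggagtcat
Aox3: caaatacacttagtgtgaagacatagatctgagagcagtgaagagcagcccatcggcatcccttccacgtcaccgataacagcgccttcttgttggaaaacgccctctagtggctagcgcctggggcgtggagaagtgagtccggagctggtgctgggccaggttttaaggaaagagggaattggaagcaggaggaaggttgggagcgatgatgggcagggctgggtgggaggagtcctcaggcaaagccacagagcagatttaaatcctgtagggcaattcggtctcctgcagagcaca
Nqo1: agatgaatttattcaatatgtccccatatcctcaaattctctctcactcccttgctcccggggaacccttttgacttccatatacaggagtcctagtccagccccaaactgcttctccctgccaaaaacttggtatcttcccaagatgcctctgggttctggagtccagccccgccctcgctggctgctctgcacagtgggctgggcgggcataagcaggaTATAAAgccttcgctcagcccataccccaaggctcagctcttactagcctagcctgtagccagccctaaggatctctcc
The core of the antioxidant response element, TGACNNNGC, was searched on both strands and was in 0 of the 7 windows, against 12.4% of all 32851 windows. TGACTCA, which shares its TGAC with the core and can overlap it, was searched after the sequences were seen. It was in 1 of 7, at bases 31 to 37 of the Aox1 window counted from its 5′ end, against 5.2% of all windows. TATAAA, also searched after the sequences were seen, was in 3 of 7 (Nqo1, Ephx1 and Ces1g), against 13.6%. A match or its lack in these windows says nothing of sites elsewhere.

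**Figure D1:**
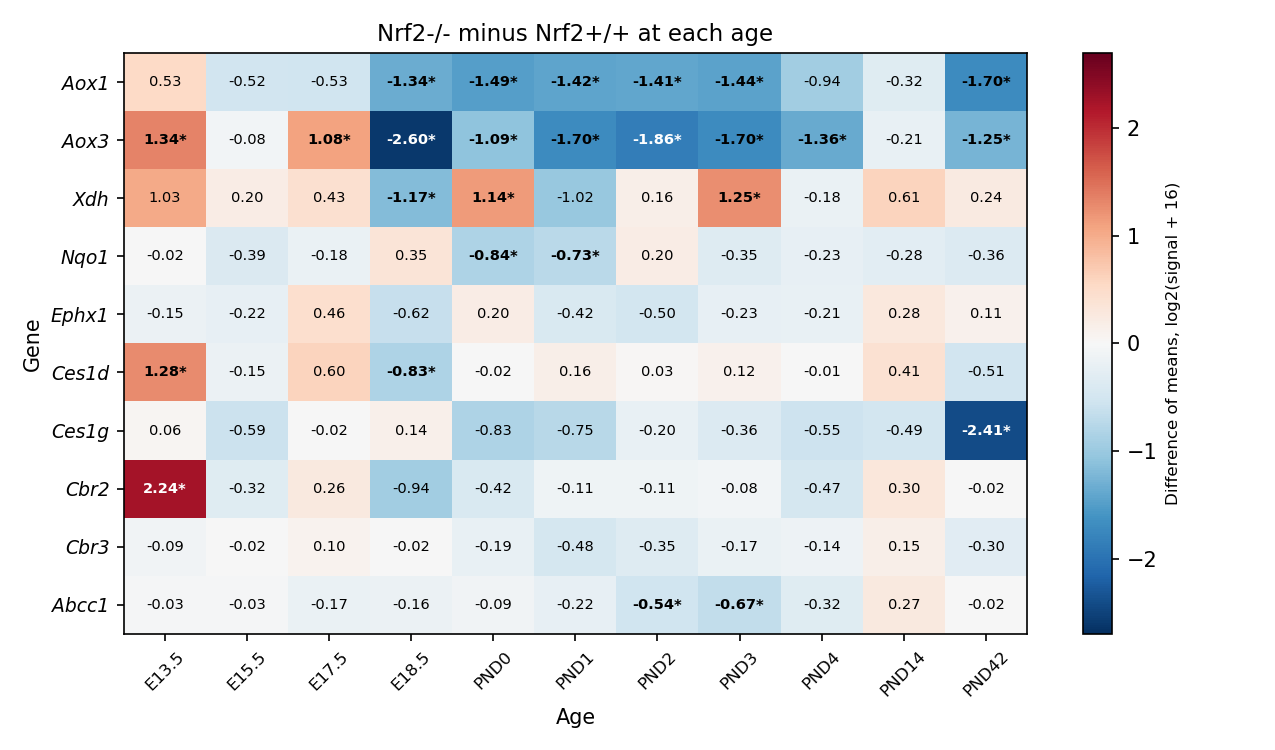
Difference of group means, Nrf2-/- minus Nrf2+/+, in log2(signal + 16), for the 10 genes (rows) at 11 ages (columns). Blue is lower in Nrf2-/-, red is higher, and bold values with a star passed limma's test at an adjusted p under 0.05. Aox1 and Aox3 are blue at every age from E18.5 on, and Ces1g is dark blue at PND42 (-2.41).

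Averaged over the 11 ages, 5 of the 10 genes were lower in KO lungs and 0 were higher. Aox1 and Aox3 fell most, and Ces1g, Nqo1 and Abcc1 also fell. Ces1g was below the array median on 63 of the 66 arrays. The Abcc1 call ended when its probe sets were averaged (-0.07, adjusted p = 0.37, limma). Of all probe sets, 5.25% were called lower and 5.31% higher. On average 4 of 6 macrophage markers were called lower too, and their part was not tested. The average difference was -0.96 ± 0.08 for Aox1 (adjusted p = 1.5e-13), -0.86 ± 0.08 for Aox3 (1.9e-11), -0.54 ± 0.10 for Ces1g (0.00017), -0.26 ± 0.06 for Nqo1 (0.0039) and -0.18 ± 0.04 for Abcc1 (0.00096; limma, SE, 33 arrays per genotype). The other 5 did not pass: Xdh 0.24 ± 0.11, Ephx1 -0.12 ± 0.07, Ces1d 0.10 ± 0.08, Cbr2 0.03 ± 0.12 and Cbr3 -0.14 ± 0.06. The median of the 10 average differences was -0.16, against 0.01 over all probe sets. The 10 genes were chosen with earlier results known, so this median and the counts above are a description. Without E13.5, E17.5 and E18.5, the number called lower was again 5, and Aox1 and Aox3 each averaged -1.16.

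The averages of several genes differed between the 2 scaling sets of arrays. Aox3 averaged -1.66 ± 0.09 over PND1 to PND4 and -0.40 ± 0.11 over the 7 other ages, both called. Aox1 averaged -1.30 ± 0.13 and -0.77 ± 0.10, both called. Abcc1 averaged -0.44 ± 0.06 at PND1 to PND4 and -0.03 ± 0.05 (adjusted p = 0.81) elsewhere. Nqo1 averaged -0.28 ± 0.09 (adjusted p = 0.048) and -0.25 ± 0.09 (adjusted p = 0.081). Ces1g averaged -0.46 ± 0.17 (adjusted p = 0.068) and -0.59 ± 0.13 (adjusted p = 0.0031). The number called lower was 7 within PND1 to PND4, where Ephx1 (-0.34), Cbr2 (-0.19) and Cbr3 (-0.29) also passed, and 3 within the other ages. Scaling set and age cannot be told apart here.

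**Figure D2:**
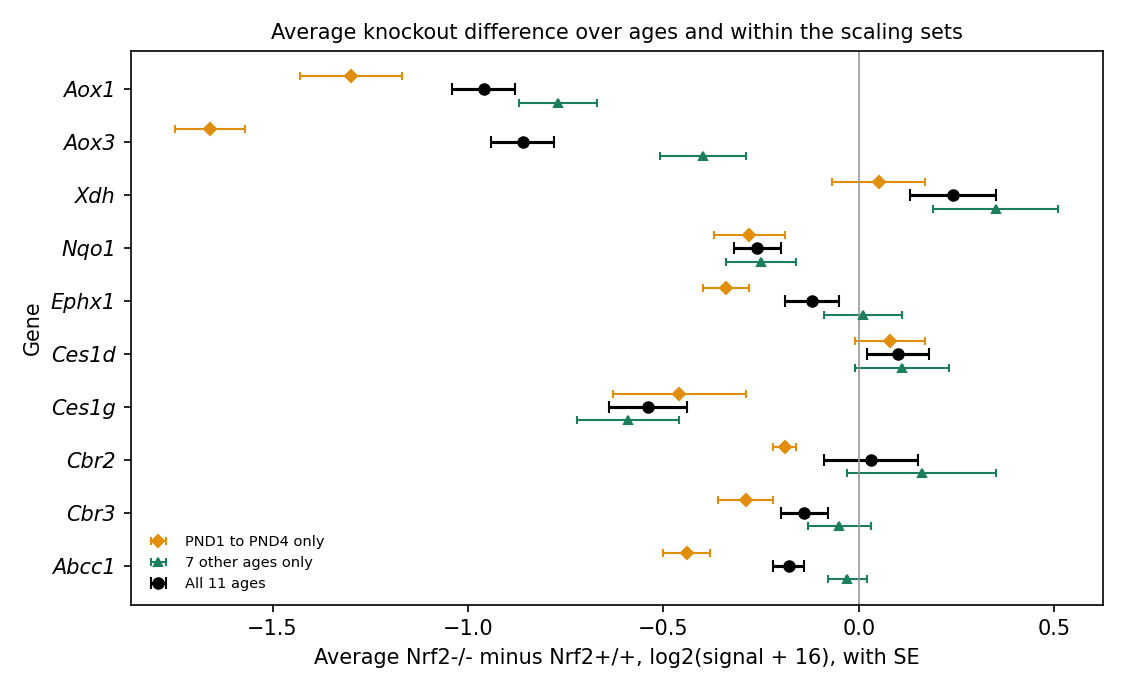
Average Nrf2-/- minus Nrf2+/+ difference (x axis, log2(signal + 16)) with its SE for each gene (y axis), over all 11 ages (circles), over PND1 to PND4 (diamonds) and over the 7 other ages (triangles). Aox1, Aox3, Nqo1 and Ces1g lie below 0 in both sets, and Abcc1 lies near 0 (-0.03) outside PND1 to PND4.

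At single ages, 26 of the 110 gene-by-age comparisons were called, 20 lower and 6 higher. Members called, beside the share of all probe sets called at that age, were 3 at E13.5 (1.54%), 0 at E15.5 (0.127%), 1 at E17.5 (1.22%), 4 at E18.5 (8.75%), 4 at PND0 (10.7%) and 3 at PND1 (2.05%). They were 3 at PND2 (5.96%), 4 at PND3 (8.08%), 1 at PND4 (0.486%), 0 at PND14 (8.2%) and 3 at PND42 (5.68%). At E15.5 and at PND14 an unadjusted p under 0.05 was reached by 1 gene each. Outside E13.5, E17.5 and E18.5, 18 of 80 comparisons were called, 16 lower and 2 higher. In 54 of the 110 comparisons the 2 groups did not overlap, with all KO values below in 43 and above in 11. Over all probe sets, all KO values lay below in 6.65% to 14.1% and above in 7.13% to 14.2%, depending on the age. The difference between genotypes depended on age in 8 of the 10 genes (limma's F test, 28.3% of all probe sets). It was not called for Ephx1 (adjusted p = 0.09) or Cbr3 (0.61). Without E13.5, E17.5 and E18.5 the F test called 5 of the 10, and not Nqo1 (0.11), Ces1d (0.48) or Cbr2 (0.33).

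Aox1 was called lower in KO lungs at E18.5, from birth to PND3 and again at PND42. At PND0 it was at 6.12, 5.48 and 5.90 in KO lungs, against 7.56, 7.10 and 7.30 in WT lungs. All 3 KO lungs lay well below all 3 WT lungs, a difference of -1.49 ± 0.26 (2.80-fold lower, adjusted p = 3e-05, limma). At PND42 it was at 8.01, 7.85 and 7.96 in KO, against 9.67, 9.96 and 9.29 in WT. The WT values were the highest of the whole course, and the KO values, though below them, were the highest in KO (-1.7 ± 0.26, 3.25-fold lower, adjusted p = 5.5e-06). At E18.5 Aox1 was called lower (-1.34), with KO lungs at 0.44 and WT lungs at 0.79 on the maturity scale. At E17.5, with KO lungs at 0.75 and WT lungs at 0.57, it was -0.53 without a call (adjusted p = 0.45, limma). The part of stage in the Aox1 difference at these ages was not tested. Aox1 was also called lower at PND1 (-1.42), PND2 (-1.41) and PND3 (-1.44). In a fit to the 6 arrays of the age alone the calls at PND1 (adjusted p = 0.09) and PND2 (0.14) were lost. At PND4 it missed the threshold (-0.94, adjusted p = 0.08). All KO lungs lay below all WT lungs at 9 of the 11 ages. The exceptions were PND14, where KO values of 7.33, 6.85 and 7.49 overlapped WT values of 7.84, 7.09 and 7.71, and E13.5, where KO replicate 1 was high (7.04, 5.98 and 6.09 in KO, against 5.38, 5.82 and 6.33 in WT).

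The age course of Aox1 itself differed between genotypes. From E13.5 to PND0 Aox1 gained 1.48 ± 0.26 in WT lungs (adjusted p = 3.7e-06), while the step was -0.54 ± 0.26 in KO lungs (adjusted p = 0.093). The difference of the steps was -2.01 ± 0.36 (adjusted p = 0.00014). It rests on the KO pools of E13.5, which were unlike each other, with Aox1 at 7.04, 5.98 and 6.09. From PND0 to PND42 the gain was 2.11 ± 0.26 in KO and 2.32 ± 0.26 in WT, both called, and the difference of these steps was -0.22 ± 0.36 (adjusted p = 0.83). Ordered by mean level, the KO ages from E15.5 (5.79, the lowest) to E17.5 (6.53) each overlapped their neighbour, and PND14 and PND42 stood apart from the age below them. Mean KO signals at the overlapping ages were 39.4 to 76.3, low enough for the pseudocount to narrow differences between them. In WT lungs E17.5 stood apart from E15.5 and PND42 from all ages below it, and the ages between overlapped.

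Aox3, the neighbouring aldehyde oxidase, was lower in KO lungs at 7 ages and higher at 2. At PND2 it was at 7.09, 7.26 and 7.16 in KO lungs, against 8.79, 9.15 and 9.16 in WT lungs. The groups were far apart, -1.86 ± 0.26, or 3.64-fold lower (adjusted p = 4.1e-06, limma). At PND42 it was at 9.90, 9.78 and 9.28 in KO, against 10.92, 10.93 and 10.84 in WT (-1.25 ± 0.26, adjusted p = 0.0012). It was also lower at PND0 (-1.09), PND1 (-1.7), PND3 (-1.7) and PND4 (-1.36). At PND14, KO values of 8.32, 8.31 and 8.85 overlapped WT values of 9.30, 8.03 and 8.79.

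Before birth the direction for Aox3 changed with the label. At E17.5 it was at 8.44, 8.53 and 8.43 in KO, against 7.68, 6.70 and 7.76 in WT (1.08 ± 0.26, adjusted p = 0.02), and without WT replicate 2 the difference was 0.74 (adjusted p = 0.35). Leaving out any 1 of the KO libraries also ended this call (adjusted p = 0.06 to 0.098). At E18.5 it was at 6.59, 7.09 and 6.51 in KO, against 9.63, 9.37 and 8.99 in WT (-2.60 ± 0.26, 6.07-fold lower, adjusted p = 1.7e-09). KO lungs stood higher at the label where they lay at 0.75 on the maturity scale and lower at the label where they lay at 0.44, and WT Aox3 itself stood higher at E18.5 than at E17.5. At these ages the part of stage in the Aox3 difference was not tested. At E13.5, where KO libraries were unlike each other, KO values of 7.37, 5.88 and 6.10 lay above WT values of 5.08, 4.97 and 5.28 (1.34 ± 0.26, adjusted p = 0.0022). Without KO replicate 1 this was 0.88 (adjusted p = 0.078). The E13.5 to PND0 step was 1.07 ± 0.26 in KO and 3.5 ± 0.26 in WT, a difference of -2.43 ± 0.37 (adjusted p = 1.2e-05). The KO step and the difference rest on the same KO pools of E13.5.

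Liver, in which aldehyde oxidases are abundant, was followed through the mean level of 6 liver markers. At PND1 it was 6.61, 5.23 and 6.91 in KO lungs, against 6.78, 12.48 and 8.65 in WT lungs, with 0 of 6 called and 4 of 6 at an unadjusted p under 0.05. Aox3 in the same libraries was at 7.69, 7.39 and 7.64 in KO, against 9.06, 9.38 and 9.36 in WT, so in WT it stood in the order of the liver markers. Aox1 was at 7.65, 7.23 and 7.16 in these WT libraries and did not stand in that order. At PND2 the liver markers lay at 4.90, 5.64 and 11.72 in KO, against 5.11, 14.39 and 10.69 in WT. The WT library lowest in them was also lowest in Aox3 (8.79), and the other 2 were nearly level in Aox3 (9.15 and 9.16). The KO library highest in the liver markers lay between the other 2 in Aox3 (7.16). At PND3 Aox3 was at 6.69, 6.73 and 6.65 in KO, against 8.51, 8.61 and 8.05 in WT. In WT it did not stand in the order of the liver markers at this age. These markers lay at 5.32, 5.58 and 5.33 in KO, against 6.56, 12.93 and 10.27 in WT, with 2 of 6 called lower. At PND4 they lay at 5.01, 5.29 and 5.46 in KO, against 4.84, 5.27 and 12.83 in WT, where Aox3 was at 7.17, 6.76 and 6.51 in KO, against 8.16, 8.21 and 8.16 in WT, and without WT replicate 3 the Aox3 difference was -1.37 (adjusted p = 0.015). At PND0 they lay at 5.02, 5.27 and 5.98 in KO, against 4.83, 5.17 and 5.25 in WT. At E17.5, where Aox3 was called higher, they lay at 7.74 to 8.80 in KO and 4.92 to 5.10 in WT, with 0 of 6 called and 3 of 6 at an unadjusted p under 0.05. The part of liver tissue in the members' differences was not tested.

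Macrophage markers moved with the aldehyde oxidases at some ages and not at others. Averaged over the 11 ages, 4 of 6 were called lower in KO lungs: Marco (-0.48), Siglecf (-0.40), Cd68 (-0.26) and Mrc1 (-0.15). The rest averaged 0.37 and 0.06 without a call. At PND2 the mean level of all 6 was 8.42 to 8.78 in KO and 9.07 to 9.86 in WT, with 3 of 6 called lower. At E17.5 Aox3 was called higher (1.08), and Aox1 was -0.53 without a call. The mean marker level there was 9.07 to 9.32 in KO and 7.31 to 7.67 in WT, with 4 of 6 called higher. At PND0, where Aox1 and Aox3 were lower, it was 9.40 to 9.59 in KO and 8.93 to 9.19 in WT, with 0 of 6 called and 3 of 6 at an unadjusted p under 0.05. The part of macrophages was not tested.

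Thymus, oesophagus and cartilage markers also differed at ages with called members. At PND2 the mean of 5 thymus markers was 7.58 to 10.89 in KO lungs and 5.68 to 6.29 in WT lungs, with 4 of 5 called higher. The mean of 5 oesophagus markers was 5.59 to 6.86 in KO and 6.15 to 10.92 in WT at PND2. At E17.5 it was 5.97 to 7.05 in KO and 9.27 to 9.52 in WT. At each age 2 of 5 were called lower, and at PND2 the others went both ways, from -1.38 to 0.81. At E18.5 the mean of 5 cartilage markers was 7.04 to 10.08 in KO and 5.77 to 6.42 in WT, with 2 of 5 called higher. The part of these tissues was not tested.

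**Figure D3:**
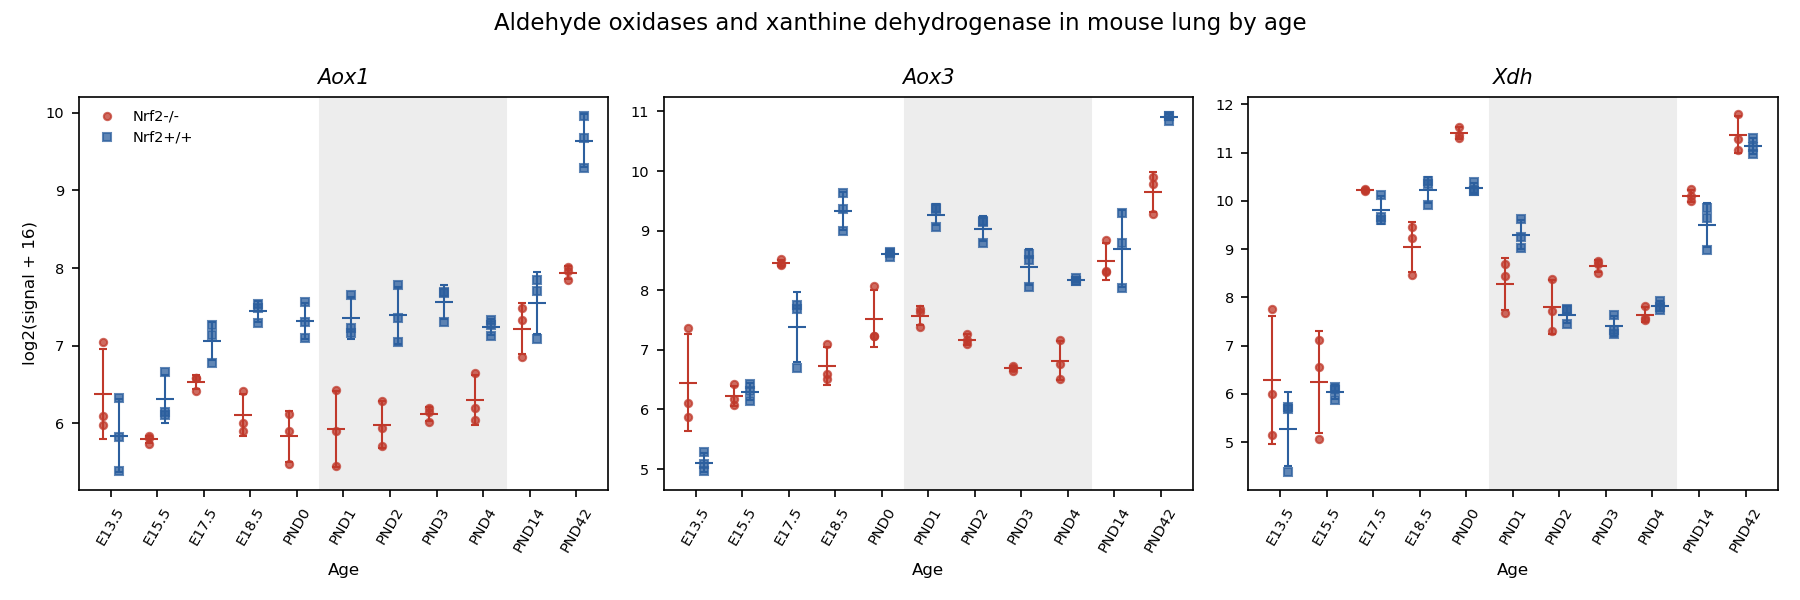
Level of Aox1, Aox3 and Xdh (y axis, log2(signal + 16)) by age (x axis) in Nrf2-/- (circles, left) and Nrf2+/+ lungs (squares, right), 3 lungs or pools per group, with the mean and SD. The shaded ages PND1 to PND4 belong to the differently scaled arrays. Aox1 in Nrf2-/- lungs stays near its fetal level until PND4 (6.30), and Xdh shows no constant order of the genotypes.

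Xdh, the molybdenum enzyme of purine breakdown, changed in both directions and did not pass on average. At PND0 it was at 11.31, 11.53 and 11.37 in KO, against 10.38, 10.21 and 10.20 in WT (1.14 ± 0.37, adjusted p = 0.038). At PND3 it was at 8.5, 8.76 and 8.69 in KO, against 7.64, 7.33 and 7.23 in WT (1.25 ± 0.37, adjusted p = 0.026). In both cases all KO lungs were above all WT lungs, yet leaving out any 1 of the 6 lungs at PND0 (adjusted p = 0.066 to 0.11), or any of 4 lungs at PND3 (0.078 to 0.097), ended the call. At E18.5 it was lower in KO (8.46, 9.46 and 9.22, against 10.34, 10.41 and 9.91 in WT; -1.17 ± 0.37, adjusted p = 0.038), and this call was lost without KO replicate 1 (-0.88, adjusted p = 0.28) and without KO replicate 3 or WT replicate 1 or 2. On the maturity scale KO lungs of E18.5 lay at 0.44 and WT lungs at 0.79. The part of stage in the Xdh difference was not tested. Xdh climbed in both genotypes from E13.5 to PND0, by 5.11 ± 0.37 in KO and 5.0 ± 0.37 in WT. The difference of these steps was 0.11 ± 0.53 (adjusted p = 0.95, limma).

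Nqo1 was modestly lower in KO lungs, most clearly at birth. At PND0 it was at 6.75, 6.94 and 6.51 in KO lungs, against 7.11, 7.86 and 7.77 in WT lungs. All KO lungs lay below all WT lungs, by -0.84 ± 0.21 or 1.80-fold (adjusted p = 0.0038, limma). At PND1 it was at 7.08, 7.20 and 7.46 in KO, against 8.08, 7.98 and 7.86 in WT (-0.73 ± 0.21), and this call was marginal (adjusted p = 0.0495). At the other 9 ages the differences ran between -0.39 and 0.35 with no call, and at E18.5 (0.35) and PND2 (0.20) the KO mean was the higher. Over the whole course Nqo1 moved little: KO lungs ranged over 6.51 to 7.92 and WT lungs over 6.67 to 8.08. In KO lungs it fell from E13.5 to PND0 (-0.64 ± 0.21, adjusted p = 0.011). Its WT steps from E13.5 to PND0 (0.19 ± 0.21) and from PND0 to PND42 (-0.31 ± 0.21) were not called. The steps from E13.5 to PND0 differed between genotypes by -0.82 ± 0.29, which was not called (adjusted p = 0.085, limma). Without WT replicate 2 the PND0 difference was -0.70 (adjusted p = 0.051), and in a fit to the 6 arrays of PND0 alone its adjusted p was 0.071.

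Ces1g was lower in KO lungs of the adult. At PND42 it was at 4.51, 5.99 and 5.17 in KO lungs, against 7.47, 8.02 and 7.40 in WT lungs. No KO lung reached the lowest WT lung, and the difference was -2.41 ± 0.34 (adjusted p = 1.6e-06, limma). It was -3.20 with a pseudocount of 1 and -1.5 with one of 64, both called. The gene was dim elsewhere: on 63 of the 66 arrays, the KO arrays of PND42 among them, its deposited signal was below the array median, and the 3 arrays above it were the WT arrays of PND42. The direction at PND42 is therefore given without a fold. At PND0 its values of 4.11, 4.72 and 4.08 in KO lay below the WT values of 5.35, 4.79 and 5.25, without a call (-0.83 ± 0.34, adjusted p = 0.12). Its step from PND0 to PND42 was 0.92 ± 0.34 in KO and 2.50 ± 0.34 in WT, both called. The steps differed by -1.58 ± 0.48 (adjusted p = 0.033), but leaving out 1 of 5 libraries ended that call (KO replicates 1 or 3 or WT replicate 2 of PND42, or replicate 2 of either genotype of PND0), with -1.22 (adjusted p = 0.13) without KO replicate 1.

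The carboxylesterase next to Ces1g on chromosome 8 was also lower in adult KO lungs. Ces1f was at 5.11, 5.26 and 4.81 in KO lungs of PND42, against 7.61, 8.94 and 7.13 in WT lungs (-2.83 ± 0.34, adjusted p = 4e-08), measured by a probe set whose type can detect several related transcripts. Liver, where carboxylesterases of this cluster are abundant, was followed through 6 marker genes: their mean level at PND42 was 5.61 to 7.18 in KO lungs and 5.23 to 6.29 in WT lungs, and 0 of 6 were called. The mean of 6 macrophage markers was 9.60 to 9.86 in KO and 10.17 to 10.44 in WT at that age, with 1 of 6 called lower, and the part of macrophages in the Ces1g and Ces1f differences was not tested.

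Ces1d, a bright carboxylesterase of the same cluster, had no call after birth. Its average difference was 0.10 ± 0.08, but its 2 other probe sets averaged -0.28 ± 0.09 (adjusted p = 0.039) and -0.37 ± 0.09 (adjusted p = 0.0047), so the probe sets disagreed. At E18.5 Ces1d was at 10.38, 11.35 and 11.15 in KO, against 11.97, 11.81 and 11.59 in WT (-0.83 ± 0.28, adjusted p = 0.0497), without KO replicate 1 -0.54 (adjusted p = 0.4), and the other probe sets gave -1.7 and -1.47, both called. At E13.5 it was at 9.42, 7.99 and 8.18 in KO, against 7.77, 6.57 and 7.43 in WT (1.28 ± 0.28, adjusted p = 0.0064), and without KO replicate 1 the difference was 0.83 (adjusted p = 0.14), without WT replicate 2 0.93 (adjusted p = 0.15). The other probe sets gave 1.9 and 1.7 at E13.5, both called. At PND0 the brightest probe set gave -0.02, the middle one -0.69 (adjusted p = 0.16) and the dimmest -1.45 (adjusted p = 0.00066). The step from E13.5 to PND0 was 3.5 ± 0.28 in KO and 4.80 ± 0.28 in WT on the brightest probe set (difference -1.30 ± 0.39, adjusted p = 0.032), a call that ended without any 1 of 6 libraries, KO replicate 1 of E13.5 among them (-0.85, adjusted p = 0.2).

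Ephx1 climbed with age in both genotypes and was called at no single age. It ranged over 6.01 to 11.44 in KO lungs and 6.82 to 11.26 in WT lungs. From E13.5 to PND0 it gained 2.64 ± 0.23 in KO and 2.28 ± 0.23 in WT, and from PND0 to PND42 1.7 ± 0.23 in KO and 1.79 ± 0.23 in WT, all called. At PND2 KO values of 9.32, 9.57 and 9.52 lay below WT values of 9.80, 10.14 and 9.94 without a call (-0.50 ± 0.23, adjusted p = 0.21). Without KO replicate 1 of E13.5 its average difference was -0.17 and passed (adjusted p = 0.034).

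**Figure D4:**
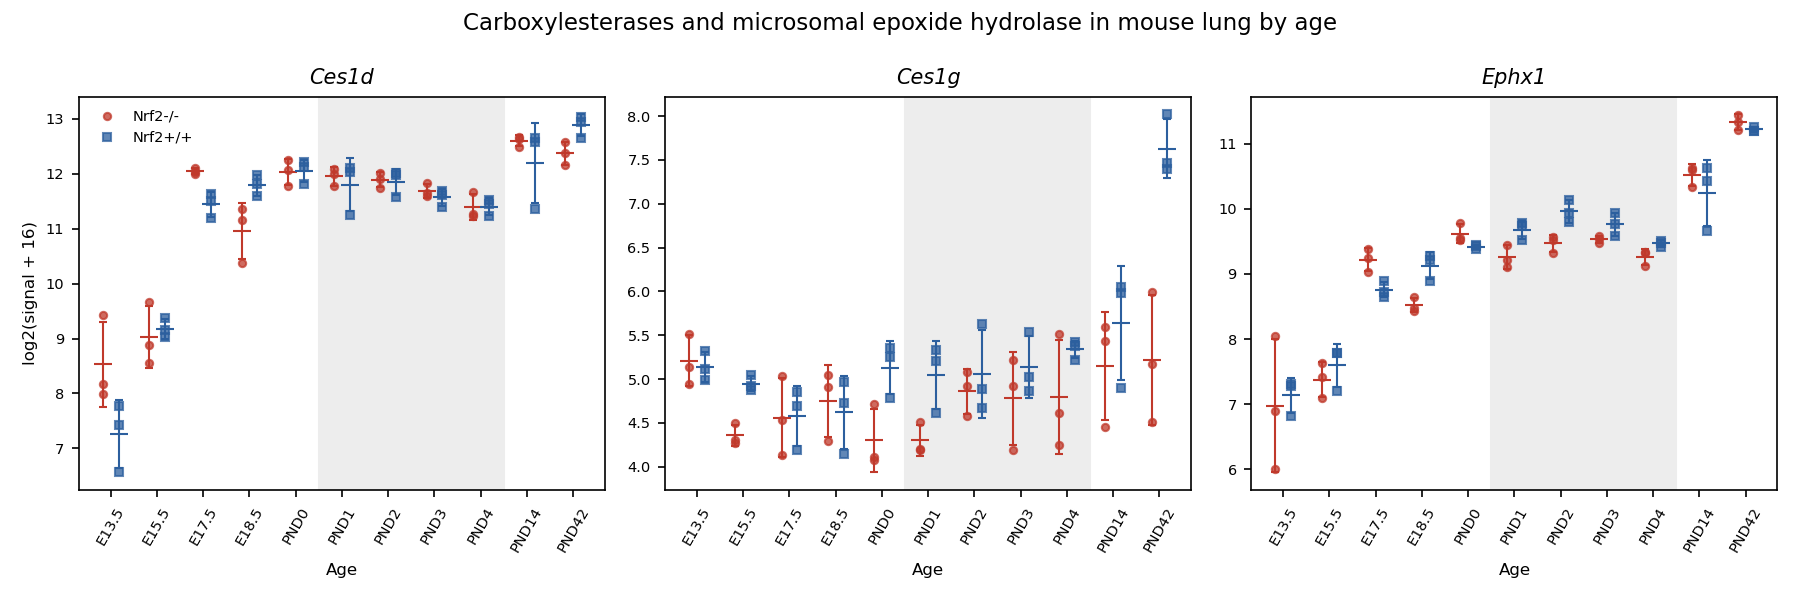
Level of Ces1d, Ces1g and Ephx1 (y axis, log2(signal + 16)) by age (x axis) in Nrf2-/- (circles, left) and Nrf2+/+ lungs (squares, right), 3 lungs or pools per group, with the mean and SD. The shaded ages PND1 to PND4 belong to the differently scaled arrays. The 3 Nrf2+/+ lungs of PND42 stand above all other lungs for Ces1g, while Ephx1 climbs in both genotypes.

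Cbr2, a carbonyl reductase abundant in mouse lung, was called in the model of all arrays at E13.5 and at no other age. It was at 11.63, 7.19 and 9.70 in KO there, against 7.18, 7.56 and 7.06 in WT (2.24 ± 0.41, adjusted p = 0.00079). The difference was 1.18 without KO replicate 1 and 3.4 without KO replicate 2, both called, and the call was lost in a fit to those 6 arrays alone (adjusted p = 0.51). The KO libraries spread widely and overlapped WT, and they stood in the same order as in the club cell markers (11.17, 8.44 and 10.02). The mean level of 5 type 2 cell markers followed suit, at 11.03, 8.5 and 9.75 in KO, against 8.16, 8.14 and 8.34 in WT, with 3 of 5 called higher. At PND42 it was at 14.66, 14.61 and 14.55 in KO, against 14.61, 14.68 and 14.58 in WT. From E13.5 to PND0 it gained 4.19 ± 0.41 in KO and 6.85 ± 0.41 in WT (difference -2.65 ± 0.58, adjusted p = 0.0017), and the difference was -1.59 without KO replicate 1 of E13.5 and -3.81 without KO replicate 2, both called. At E18.5 (-0.94), PND0 (-0.42) and PND4 (-0.47) all KO lungs lay below all WT lungs without a call in the model of all arrays. At PND4 Cbr2 was at 13.73, 13.72 and 13.79 in KO, against 14.22, 14.24 and 14.19 in WT. In fits to the 6 arrays of each age alone these 3 differences were called lower (adjusted p = 0.045, 0.014 and 0.0088). Without E13.5 the average difference of Cbr2 was -0.19 ± 0.06 and passed (adjusted p = 0.031).

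Cbr3, which reduces carbonyls and is described as an Nrf2 target in human cells, was called at no age. Its largest difference was at PND1, at 8.93, 9.01 and 9.32 in KO, against 9.61, 9.53 and 9.56 in WT (-0.48 ± 0.19, adjusted p = 0.21), where all KO lungs lay below all WT lungs. Its levels spanned 7.57 to 9.60 in KO and 7.88 to 9.63 in WT.

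Abcc1 was lower in KO lungs of PND2 and PND3. At PND3 it was at 8.89, 8.70 and 8.75 in KO, against 9.51, 9.40 and 9.43 in WT (-0.67 ± 0.13, 1.59-fold lower, adjusted p = 0.00032, limma). At PND2, where the call was lost in a fit to the 6 arrays alone (adjusted p = 0.2), it was at 8.66, 8.78 and 8.59 in KO, against 9.31, 9.01 and 9.34 in WT (-0.54 ± 0.13, adjusted p = 0.0059). The groups did not overlap at either age. The second, dimmer Abcc1 probe set did not show this: it gave 0.43 ± 0.23 at PND3 (adjusted p = 0.28) and an average of 0.03 ± 0.07.

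**Figure D5:**
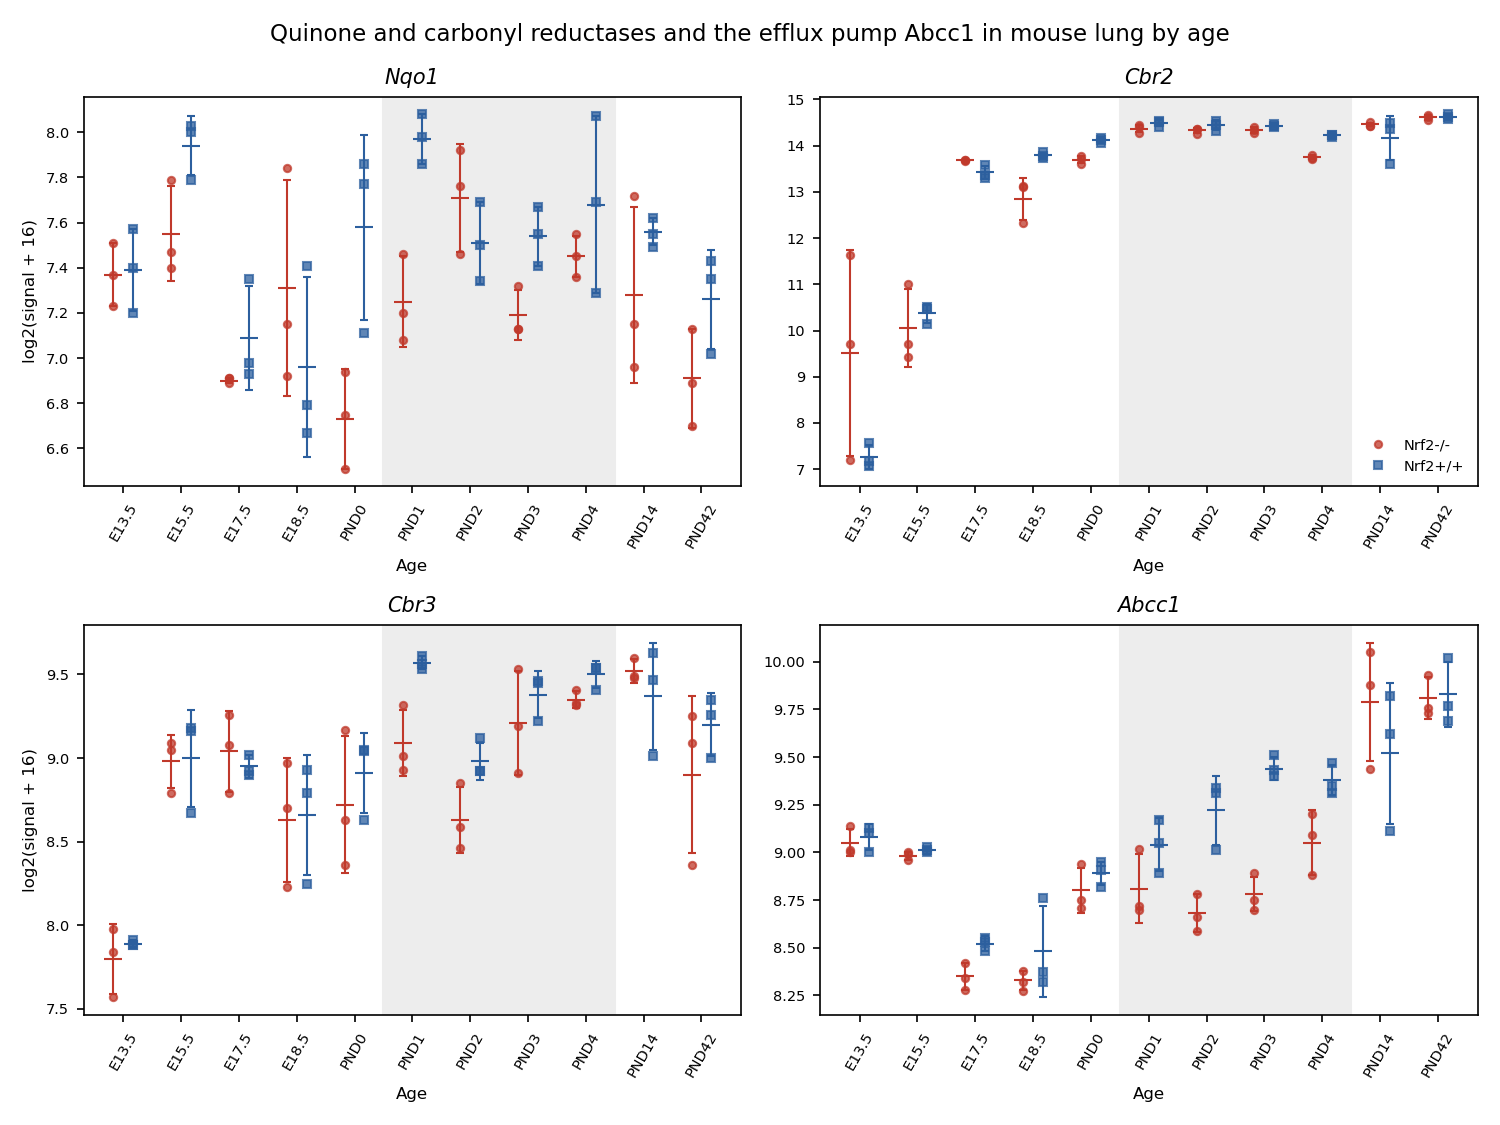
Level of Nqo1, Cbr2, Cbr3 and Abcc1 (y axis, log2(signal + 16)) by age (x axis) in Nrf2-/- (circles, left) and Nrf2+/+ lungs (squares, right), 3 lungs or pools per group, with the mean and SD. The shaded ages PND1 to PND4 belong to the differently scaled arrays. Abcc1 separates the genotypes at PND2 and PND3, and the Nrf2-/- pools of E13.5 are spread widely for Cbr2 (7.19 to 11.63).

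Around E18.5, where 4 members were called lower, lung epithelial markers were also lower in KO. The mean level of the 5 type 1 cell markers was 10.72 to 11.30 in KO lungs and 12.06 to 12.51 in WT lungs, with 3 of 5 called lower. That of the 5 type 2 cell markers was 11.95 to 12.66 in KO and 12.99 to 13.42 in WT, with 2 of 5 called lower, and 2 of 5 club cell markers were called lower. At PND3 the aldehyde oxidases and Abcc1 were also lower. The club cell markers there had a mean level of 11.70 to 11.95 in KO and 12.25 to 12.53 in WT. Of these 5 markers 1 was called lower, Aldh1a1 (-1.31), and the others lay between -0.8 and -0.01. The type 2 cell markers lay at 13.61 to 13.72 in KO and 13.35 to 13.51 in WT, with 0 of 5 called. The part of these cell types in the members' differences was not tested.

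In WT lungs alone, all 10 genes changed with age (limma's F test, 65.2% of all probe sets). Between E13.5 and PND0, 7 of 10 were called (35.5%), all higher at PND0: Cbr2 by 6.85, Xdh by 5.0, Ces1d by 4.80, Aox3 by 3.5, Ephx1 by 2.28, Aox1 by 1.48 and Cbr3 by 1.02. Between PND0 and PND42, 6 of 10 were called (19.1%), all higher in the adult, led by Ces1g (2.50), Aox1 (2.32), Aox3 (2.29) and Ephx1 (1.79), with Abcc1 (0.93) and Ces1d (0.82). Between PND1 and PND4, Aox3 (-1.09 ± 0.26) and Xdh (-1.48 ± 0.37) fell, 2 of 10 (9.79%). The steps differed between genotypes in 4 of 10 from E13.5 to PND0 (6.66%; Aox1, Aox3, Ces1d and Cbr2), in 1 of 10 from PND0 to PND42 (6.85%; Ces1g) and in 0 of 10 from PND1 to PND4 (0.0488%). For the last, 0 of 10 had an unadjusted p under 0.05, and the lowest was 0.097.

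The genes with the most similar profiles over the 22 group means, among 8512 well-expressed genes, were Ro60 (r = 0.90), Ppm1b (0.85) and Creg1 (0.83) for Aox1, and Creg1 (0.91), Tmem205 (0.90) and Bscl2 (0.89) for Aox3. They were Sec14l3 and Hp (0.99 each) for Ces1d, Emp2, Ager and Sec14l3 (0.99 each) for Cbr2, Arhgef3 (0.99) for Ephx1 and Pid1 (0.96) for Xdh. Nqo1 (Gpbp1, 0.77) and Ces1g (Akna, 0.79) had no profile as close. Aox1 and Aox3 correlated with each other at 0.88, and Ces1d and Cbr2 at 0.97. The points share arrays, ages and genotype, so these values only describe the profiles.

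Relatives and pathway partners were read from lists, against 5.25% of all probe sets called lower on average and 5.31% higher. Of 13 measured relatives of the members, 1 was lower on average (Ces1f, -0.39 ± 0.10, adjusted p = 0.0068) and 0 were higher. Aox4, another aldehyde oxidase, averaged 0.17 ± 0.12 (adjusted p = 0.4). The quinone reductase Nqo2 (-0.67, adjusted p = 0.004) and the carbonyl reductase Cbr1 (-0.70, adjusted p = 0.00013) were lower at PND0. At that age 10.7% of all probe sets were called. Of the 13 relatives, Ephx2 was also lower at PND2 (-1.54), Ces1e at E18.5 (-1.09) and PND3 (-1.05), and Ces1f at PND42 (-2.83). Of 8 genes of the molybdenum cofactor, which the oxidases need, 0 were called on average by limma, and an unadjusted p under 0.05 was reached by 0. At PND0, where 10.7% of all probe sets were called, 3 of them were lower (Gphn -0.46, Mocs2 -0.41 and Mtarc2 -0.40). Gphn was also lower at PND3 (-0.64), and Mocs2 was higher at E17.5 (0.50, adjusted p = 0.033). Of 12 measured aldehyde and ketone reductases and dehydrogenases, 3 were lower on average and 0 higher: the retinaldehyde dehydrogenase Aldh1a1 (-0.48 ± 0.08, adjusted p = 1e-05), the aldo-keto reductase Akr1b8 (-0.33 ± 0.06, adjusted p = 0.00014) and Akr1a1 (-0.06 ± 0.02, adjusted p = 0.0082). Of 9 other efflux pumps 0 were called on average by limma and 2 reached an unadjusted p under 0.05, with a median difference of 0.06.

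Of 9 glutathione genes, 6 were lower on average in KO lungs and 0 higher, with a median of -0.28. They were led by the glutathione S-transferase Gsta3 (-1.43 ± 0.11, adjusted p = 7.8e-14) and the peroxidase Gpx2 (-1.29 ± 0.13, adjusted p = 1.8e-10), both further down than Aox1 in log2 difference, with Gstm1 at -0.59 and Gclc, the catalytic subunit of glutathione synthesis, at -0.38. These lists were put together with earlier results of the same arrays known, so their counts are a description.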

How the data were processed

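Whole-lung RNA of 66 samples (22 groups of 3) was measured on 1 Affymetrix array each. The deposited values are linear intensities per probe set, made by the authors; the submitters' processing notes name GCOS. Its version, algorithm and scaling target are not given in the sources used here. Of 45101 probe sets, 64 controls were left out. The platform annotation gave 1 symbol for 34945, several for 932 and none for 9160, and symbols were updated with RefSeq gene names.

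Arrays were quantile normalized and values taken as log2(value + 16). A limma model (3.58.1, R 4.3.3, package data.table, version 1.17.8) with 22 group means, empirical Bayes moderation and an intensity trend was fitted to all arrays (residual df 44, prior df 6.69). P-values are two-sided and Benjamini-Hochberg adjusted over 45037 probe sets, with a threshold of 0.05. An exact permutation test of 3 against 3 cannot go under 0.1, so none was used. Named genes were the members, Nfe2l2, the 3 likest genes of each member (the closest are printed) and up to 4 called genes per list. All called relatives were named, and Aox4 was named outside this rule. The members and lists were chosen with earlier results of these data known. The model was tested on simulated data. Promoters are from RefSeq. Plots used matplotlib (3.10.9, Python 3.11.15).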

Additional observations from a re-analysis of the deposited data

Results flagged for a closer look

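The size of the difference between KO and WT lungs was not the same at the 11 ages in 8 genes by limma's F test. The adjusted p was 6.7e-12 for Aox3, whose differences ran from -2.60 at E18.5 to 1.34 at E13.5, and 2.7e-05 for Aox1 (-1.7 to 0.53). It was 0.0013 for Xdh, 0.0025 for Ces1g, 0.0031 for Abcc1, 0.0038 for Ces1d, 0.0041 for Cbr2 and 0.028 for Nqo1. Within PND1 to PND4 alone, the same test gave 0.75 for Aox1 and 0.58 for Aox3.

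In 5 cases an age step itself differed between genotypes, KO step minus WT step. From E13.5 to PND0 the difference of steps was -2.65 for Cbr2, -2.43 for Aox3, -2.01 for Aox1 and -1.30 for Ces1d, and all 4 of these rest on the KO pools of E13.5, which were unlike each other. From PND0 to PND42 it was -1.58 for Ces1g. Each group held 3 samples, too few to look for single outlying samples.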

How the results depend on the processing

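The 5 genes lower on average were 4 to 7 under the other normalizations, pseudocounts, filters, variance models and age sets, except over the 7 ages outside PND1 to PND4, where 3 were lower. Within PND1 to PND4 and, separately, without E13.5, the average of Cbr2 turned to -0.19 and passed in both cases. The number of genes whose genotype difference depended on age was 8, and 2 within PND1 to PND4, 5 within the other 7 ages and 5 without E13.5, E17.5 and E18.5 (a setting added after seeing the data); the smaller sets hold fewer arrays. Genes changing with age in WT were 10, and 5 within PND1 to PND4. The 26 single-age calls were 21 to 29 under the alternatives. Fitting the 6 arrays of each age alone gave 21. It ended the calls of Aox1 at PND1 and PND2, Nqo1 at PND0 and PND1, Abcc1 at PND2, Ces1d at E18.5 and Aox3, Ces1d and Cbr2 at E13.5, and added Ces1d at E17.5 and Cbr2 at E18.5, PND0 and PND4. Scaled as deposited, the median difference of all probe sets at PND3 was -0.20, and with array medians subtracted it was 0.12 at PND2. As deposited, Xdh at PND3 was 0.85 (adjusted p = 0.16), and with medians subtracted Abcc1 at PND2 was -0.36 (adjusted p = 0.16). Averaging the probe sets of a gene ended the Abcc1 average call (-0.07, adjusted p = 0.37). With the Gapdh 3' to 5' ratio as a covariate, 5 genes were again lower on average and 25 single-age comparisons were called. The Nqo1 call at PND1 was lost (-0.72, adjusted p = 0.054, limma). The WT genes called between PND0 and PND42 were 5 instead of 6, without Ces1d (0.49, adjusted p = 0.37, limma).

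Leaving out each of the 66 arrays in turn gave 5 to 6 genes lower on average, 23 to 28 single-age calls, 7 to 9 for the dependence on age, 10 to 10 for age in WT, 7 to 7, 5 to 7 and 2 to 3 for the WT steps to PND0, PND42 and PND4, and 3 to 5 for differing steps, the 3 without KO replicate 2 of PND0. The single-age calls most often lost were Ces1d at E18.5 and Nqo1 at PND1, whose adjusted p lay just under 0.05. Replicate numbers gave little sign of pairing: 1 of 33 same-numbered pairs had deviations correlated over 0.1 (0.21 at E18.5). Pairing in any other order, such as by litter, was not tested. With the replicate number as a block, the counts were 5, 24, 8, 10, 7, 6, 2 and 5 in the order above, and the Nqo1 call at PND1 and the Ces1d call at E18.5 (adjusted p = 0.054) were lost. Ces1g lay below the array median on all but the WT arrays of PND42, so its folds, the one at PND42 included, cannot be resolved.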
